A study of Sus scrofa with 10 samples.

Results

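The genes described here clear maternal RNA or hold it back from translation: BTG4, the deadenylase genes CNOT6L, CNOT7, CNOT1 and PAN2, and the oocyte RNA-binding factor genes ZAR1, ZAR1L, CPEB1, PABPN1L and DAZL. They were chosen by name, and 9 of the 10 names occur among the 24358 genes listed. No row carries the name DAZL. One unnamed row is annotated in the file as deleted in azoospermia like, and its NCBI gene identifier is that of DAZL, so its values are given separately. No name occurred on more than 1 row.

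The samples are pig (Sus scrofa) morulae, embryos of compacting blastomeres, grown from matured oocytes that were injected with siRNA and then activated without sperm, so every embryo in both groups was a parthenote. In 5 libraries the siRNA targeted DDB1 (DDB1_KD), the adaptor of CUL4 ubiquitin ligases, and in 5 it was a non-specific negative control (NC). The sources used here do not state how many embryos made up a library or whether a group's libraries were separate cultures, so p-values measure the spread between these libraries, which may be technical. Bulk RNA of this kind cannot tell fewer embryos or cells holding a transcript apart from less of it in each.

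An oocyte stores RNA that it cannot replace, much of it masked with short tails. CPEB1 binds the cytoplasmic polyadenylation element in such RNAs and, with partners, first represses and then lengthens their tails, while ZAR1 and ZAR1L bind and stabilise stored RNA in mouse oocytes. Removal starts with shortening of the poly(A) tail. The PAN2-PAN3 and CCR4-NOT complexes do this, CNOT1 being the CCR4-NOT scaffold and CNOT7 and CNOT6L catalytic subunits. In mouse oocytes BTG4 bridges CCR4-NOT to maternal messages and PABPN1L is a poly(A)-binding partner of BTG4.

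Library depth was 32466912 to 50911295 estimated counts in total. DDB1 itself had 0.920, 1.30, 1.28, 1.30 and 1.55 FPKM (fragments per kilobase of transcript, scaled to library size) in DDB1_KD replicates 1 to 5 and 3.59, 3.12, 2.53, 3.15 and 4.44 FPKM in NC replicates 1 to 5. The groups did not overlap. The fitted log2 fold change was -1.39 (SE 0.28), but DDB1 did not pass edgeR's quasi-likelihood test over all genes (adjusted p = 0.977). Of 12 morula and early lineage markers 11 were tested, 6 with a fitted value above 0 and 5 below (median 0.07), and none passed. The 4 with the smallest p were DPPA2, at a log2 fold change of 0.52 (SE 0.24), TDGF1 at 1.42 (SE 0.99; 0.41 without DDB1_KD replicate 2), GATA3 at -1.34 (SE 1.02; -0.77 without NC replicate 5) and POU5F1 at -0.47 (SE 0.36; -0.81 without DDB1_KD replicate 4 and -0.26 without NC replicate 1). TDGF1 and SOX2, both with a fitted value above 0, had NC means of 0.934 and 0.871 FPKM. They passed the level filter, a mean of at least 1 FPKM over the 10 libraries, through the DDB1_KD libraries. The filter thus favoured their place among the values above 0. The trophectoderm factor CDX2 had at most 16 counts in any library. Cumulus and granulosa cell markers were low, with 14 of 15 names found and summed levels of 1.41 to 3.32 FPKM in DDB1_KD and 1.44 to 3.26 FPKM in NC. Of the 14, 4 had no count in any library (AMH, FSHR, INHA and CYP11A1), and 1, VCAN, reached the level filter. VCAN had up to 1587 counts in a library, with a mean of 1.48 FPKM in DDB1_KD and 1.19 FPKM in NC. Below the filter, STAR had up to 342 counts in a library and GJA1 up to 176.

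No member of the set rose or fell with DDB1 knockdown by the test. With a mean of at least 1 FPKM over the 10 libraries required, 6 of the 9 named members were tested (BTG4, CNOT7, CNOT6L, CNOT1, PAN2 and CPEB1), and 3 (ZAR1, ZAR1L and PABPN1L) were not. None of the 6 passed edgeR's test at an adjusted p under 0.05, against 0% of all 8476 genes tested. At an unadjusted p under 0.05 edgeR gave 0 of the 6 members and 2.89% of all genes (245), limma 0 members and 273 genes, and DESeq2 1 member, CNOT7, and 353 genes. By DESeq2's adjusted p DDB1 and 1 other gene passed (0.0236% of genes) and no member did. For none of the 9 members were the 5 DDB1_KD values all on one side of the 5 NC values, which was so for 0.413% of genes tested.

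The fitted values lay above 0 without passing. In a fit with no level filter, which holds all 9 members and 18578 genes, 9 of 9 members had a log2 fold change above 0 (median 0.59), as did 49.5% of all genes (median -0.01). The smallest edgeR adjusted p of a member in that fit was 0.688. Group medians did not all go this way. DDB1_KD had the lower median for BTG4 (23.9 against 25.5 FPKM), CNOT1 (11.5 against 11.9 FPKM) and ZAR1 (no count against 0.164 FPKM). It had the higher median for CNOT7, CNOT6L, PAN2, CPEB1 and ZAR1L. The median library of either group had no count for PABPN1L. The sign rested on single libraries for BTG4 and CNOT1, as given with those genes. For PAN2 the leading isoform had a fitted value below 0. ZAR1 and PABPN1L owe their values to a few libraries with counts. In DDB1_KD, replicate 2 held 46 of the 55 counts of ZAR1, and replicate 3 held all 20 counts of PABPN1L. The 9 signs are therefore not of equal weight. They are not independent either, as members tended to be high in the same libraries.

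**Figure D1:**
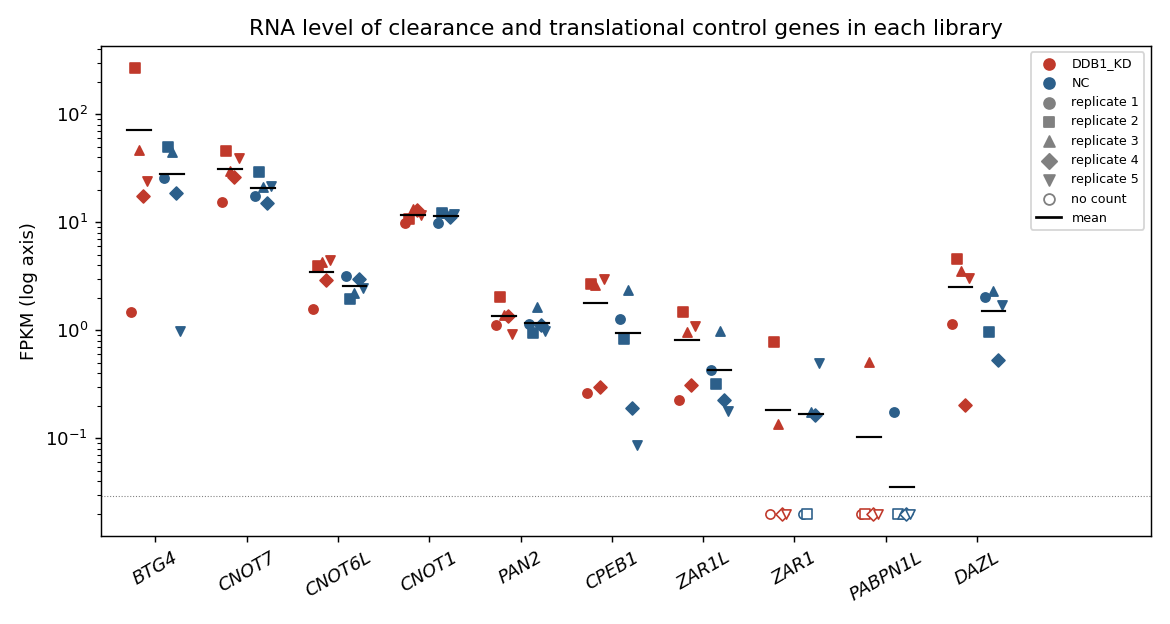
FPKM on a log axis for the 9 named genes and the row annotated as DAZL, with 1 point per library, DDB1_KD in red and NC in blue, the marker shape giving the replicate number and the black line the mean. Open points under the dotted line are libraries with no count. BTG4 and CPEB1 spread widely within both groups, while CNOT1 lies between 9.77 and 13.1 FPKM in all 10 libraries.

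BTG4, the adaptor between CCR4-NOT and maternal messages, was the most variable member. The gene (ENSSSCG00000015020) lies on chromosome 9 from 39236413 to 39301867 on the minus strand of the susScr11 build and has 1 listed isoform of 7 exons and 2373 bases. Its level was 1.48, 266, 46.7, 17.4 and 23.9 FPKM in DDB1_KD replicates 1 to 5, against 25.5, 49.2, 44.9, 18.6 and 0.973 FPKM in NC replicates 1 to 5. DDB1_KD replicate 2 stood far above every other library, and 1 library of each group, DDB1_KD replicate 1 and NC replicate 5, stood far below the rest. Counts ran from 160 to 27772 in DDB1_KD and from 116 to 5276 in NC, so the low values rest on over 100 counts.

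The highest level of BTG4 was 273 times the lowest. Ranked by FPKM within its library, BTG4 was gene 306 in DDB1_KD replicate 2 and gene 8633 in NC replicate 5. Only 2 of 5 DDB1_KD libraries exceeded the NC median of 25.5 FPKM, and the DDB1_KD median was 23.9 FPKM. The fitted log2 fold change of 1.29 (SE 1.07, edgeR adjusted p = 0.977) rested on DDB1_KD replicate 2, and without that library it was -0.28. Part of the BTG4 span, 24873 bases, overlaps C11orf88 on the plus strand, which had at most 1.85 FPKM in any library. The sources used here do not say if strand entered the counting.

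CNOT7, a catalytic deadenylase subunit of CCR4-NOT, had the smallest p among the members. It lies on chromosome 17 from 4926156 to 4949583, minus strand (ENSSSCG00000006983). Its level was 15.3, 45.9, 29.9, 26.2 and 39.4 FPKM in DDB1_KD replicates 1 to 5, and 17.3, 29.1, 21.0, 15.1 and 21.4 FPKM in NC replicates 1 to 5. DDB1_KD replicates 2 to 5 exceeded the NC median and replicate 1 was near the lowest NC value, so the groups overlapped. The mean was 31.3 ± 11.9 FPKM in DDB1_KD against 20.8 ± 5.34 FPKM in NC (mean ± SD over 5 libraries each), a log2 fold change of 0.60 (SE 0.29, edgeR adjusted p = 0.977). Leaving out any 1 library gave 0.45 to 0.80.

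CNOT6L, a catalytic subunit of the other nuclease class in CCR4-NOT, had 1.56, 3.93, 4.31, 2.89 and 4.44 FPKM in DDB1_KD replicates 1 to 5. In NC replicates 1 to 5 it had 3.17, 1.94, 2.21, 2.99 and 2.48 FPKM. DDB1_KD replicate 1 was the lowest of all 10 libraries, and replicates 2, 3 and 5 lay above all NC libraries. The log2 fold change was 0.44 (SE 0.31, edgeR adjusted p = 0.977) and ran from 0.31 to 0.64 with 1 library left out. The gene (ENSSSCG00000008989) lies on chromosome 8 from 73194478 to 73305308 on the minus strand.

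CNOT1, the scaffold on which CCR4-NOT assembles, was nearly level across the study. The FPKM values were 9.77, 10.7, 13.1, 12.8 and 11.5 in DDB1_KD replicates 1 to 5, and 9.78, 12.3, 12.2, 11.1 and 11.9 in NC replicates 1 to 5. The highest was 1.34 times the lowest, and both groups covered nearly the same range. The log2 fold change was 0.03 (SE 0.16, edgeR adjusted p = 0.984), and it turned negative without DDB1_KD replicate 3 or NC replicate 1. CNOT1 (ENSSSCG00000002799) lies on chromosome 6 from 20271594 to 20372920, minus strand, and 3 small RNA genes lie within it on the same strand.

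PAN2, the catalytic subunit of the PAN2-PAN3 deadenylase that trims long tails, was low. It had 1.11, 2.03, 1.38, 1.35 and 0.924 FPKM in DDB1_KD replicates 1 to 5 and 1.14, 0.944, 1.64, 1.11 and 0.977 FPKM in NC replicates 1 to 5. The highest value was in DDB1_KD replicate 2 and the lowest in DDB1_KD replicate 5, outside the NC range on both sides. The log2 fold change was 0.22 (SE 0.27, edgeR adjusted p = 0.977), and 0.06 without DDB1_KD replicate 2. The listed span (ENSSSCG00000000393; chromosome 5, 21710772 to 21748950, minus strand) overlaps STAT2 by 15921 bases and CNPY2 by 521 bases on the same strand. Their mean levels were 8.45 and 48.1 FPKM, so part of the PAN2 count may be shared with them. The leading PAN2 isoform, ENSSSCT00000046573, had a mean of 1.18 FPKM in DDB1_KD against 1.30 FPKM in NC. Its log2 fold change in the isoform fit was -0.14 (SE 0.31, edgeR adjusted p = 0.9997). The other PAN2 isoform with counts, ENSSSCT00000040880, had 0.752 FPKM in DDB1_KD against 0.408 FPKM in NC and was below the level filter.

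CPEB1, the cytoplasmic polyadenylation factor, varied within both groups. Its level was 0.259, 2.66, 2.63, 0.298 and 2.99 FPKM in DDB1_KD replicates 1 to 5, and 1.26, 0.826, 2.33, 0.189 and 0.0870 FPKM in NC replicates 1 to 5. DDB1_KD replicates 2, 3 and 5 were above every NC library, while replicates 1 and 4 were about as low as NC replicate 4. The log2 fold change was 0.97 (SE 0.89, edgeR adjusted p = 0.977), with 0.66 to 1.60 when 1 library was left out. The mean was 1.77 ± 1.37 FPKM in DDB1_KD against 0.940 ± 0.915 FPKM in NC (mean ± SD over 5 libraries each), so CPEB1 passed the level filter through the DDB1_KD libraries. It lies on chromosome 7 from 52303665 to 52383732, plus strand (ENSSSCG00000001808).

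ZAR1L, a paralog of ZAR1, followed the same libraries at a lower level. It had 0.227, 1.46, 0.954, 0.312 and 1.08 FPKM in DDB1_KD replicates 1 to 5, against 0.422, 0.317, 0.972, 0.223 and 0.178 FPKM in NC replicates 1 to 5. As for CPEB1, DDB1_KD replicates 2, 3 and 5 and NC replicate 3 were the 4 highest. In the fit with no level filter the log2 fold change was 0.96 (SE 0.66, edgeR adjusted p = 0.796). ZAR1L (ENSSSCG00000034291) lies on chromosome 11 from 8765256 to 8805881, minus strand.

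ZAR1 and PABPN1L were at the edge of detection. ZAR1 (ENSSSCG00000008824; chromosome 8, 38386643 to 38391611, plus strand) had 0, 46, 9, 0 and 0 counts in DDB1_KD replicates 1 to 5 and 0, 0, 9, 12 and 33 counts in NC replicates 1 to 5. PABPN1L (ENSSSCG00000036367; chromosome 6, 858888 to 861604, plus strand) had 20 counts in DDB1_KD replicate 3 and 6 in NC replicate 1. The other 8 libraries had no count for PABPN1L, which allows up to 3 counts in each and covers counting error only. No difference between the groups was detectable for either gene at this depth.

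The row annotated as DAZL, the germ cell RNA-binding protein gene (ENSSSCG00000030671; chromosome 13, 3764784 to 3776150, minus strand), had 1.15, 4.51, 3.51, 0.203 and 3.05 FPKM in DDB1_KD replicates 1 to 5. In NC replicates 1 to 5 it had 2.01, 0.957, 2.30, 0.533 and 1.70 FPKM. Once more DDB1_KD replicates 2, 3 and 5 were the highest of all, and DDB1_KD replicate 4, at 7 counts, the lowest. The log2 fold change was 0.78 (SE 0.68, edgeR adjusted p = 0.977).

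**Figure D2:**
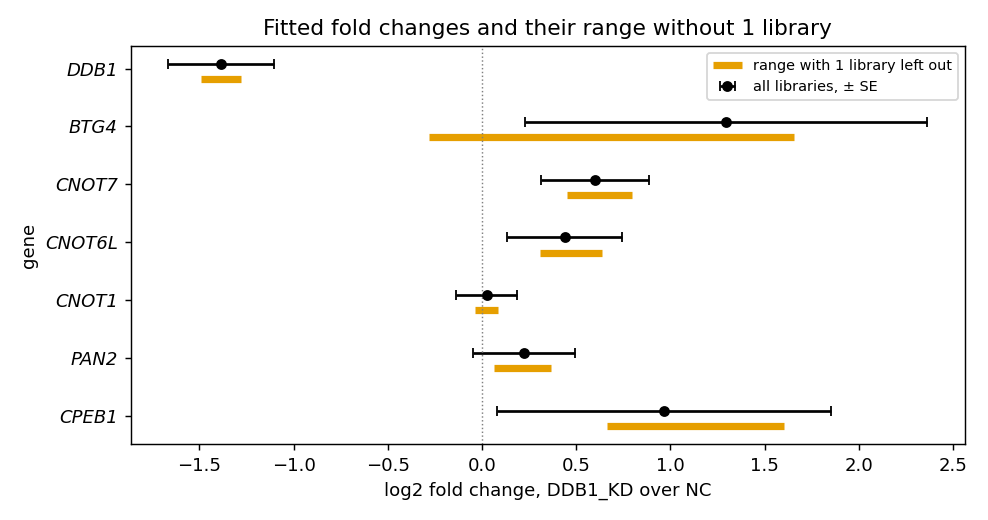
Log2 fold change of DDB1_KD over NC from edgeR for DDB1 and the 6 tested members, with bars of ± 1 SE, and in orange the range of the same value when 1 library was left out. DDB1 runs from -1.49 to -1.28, whereas the range of BTG4 crosses 0 (-0.28 to 1.66).

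Within each group BTG4 and CPEB1 varied far more than the deadenylase genes. The SD of log2 CPM (log2 counts scaled to library size by TMM) over the 10 libraries was 2.40 for BTG4 and 1.84 for CPEB1, above that of 98.5% and 97.0% of genes tested. For CNOT1 it was 0.17, above 0.779% of genes. PAN2 stood at 0.34 (above 20.8%), CNOT6L at 0.52 (50.9%) and CNOT7 at 0.56 (56.6%), and the row annotated as DAZL at 1.27 (92.3%). The same order of BTG4, CPEB1 and CNOT1 held inside each group, with 2.67, 1.83 and 0.20 in DDB1_KD and 2.36, 1.90 and 0.15 in NC. The row annotated as DAZL had 1.71 in DDB1_KD and 0.77 in NC. CPEB1 had 18 counts in its lowest library, where counting error is large.

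The libraries that were high for 1 member tended to be high for others. DDB1_KD replicate 3 was above the 10-library mean for 6 of 6 tested members and replicates 2 and 5 for 5 of 6, while replicate 4 was above it for 1 and replicate 1 for 0. Among NC libraries, replicates 2 and 3 were above the mean for 4 of 6, replicates 1 and 4 for 3 and replicate 5 for 0. DDB1_KD replicate 2 held the highest value of 5 of the 9 named members.

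Other maternal transcripts were high and low in the same libraries. A list of 25 names of oocyte genes outside the members gave 21 rows and 18 tested genes, 15 with a fitted value above 0 and 3 below (median 0.68), and none passed. The highest mean of the 18 genes was in DDB1_KD replicate 2 (4.90 log2 CPM) and the lowest in DDB1_KD replicate 1 (1.85 log2 CPM). The DDB1_KD range of 1.85 to 4.90 thus enclosed the NC range of 2.47 to 4.35. Their summed level was 77.5 to 647 FPKM in DDB1_KD and 85.4 to 281 FPKM in NC, and its part in the members' values was not tested. The 4 genes with the smallest p were ZP4, ZP2, GDF9 and KPNA7. By edgeR 1 of the 18 had an unadjusted p under 0.05, against 2.89% of all genes tested. The zona pellucida gene ZP4 stood at a log2 fold change of 2.02 (SE 0.66; 1.30 without DDB1_KD replicate 2). ZP2 stood at 1.06 (SE 0.54) and the oocyte growth factor gene GDF9 at 0.97 (SE 0.56; 1.52 without NC replicate 3). KPNA7, an oocyte importin, had 20.7 ± 26.4 FPKM in DDB1_KD against 7.70 ± 5.26 FPKM in NC (mean ± SD over 5 libraries each), and its fitted log2 fold change of 1.39 (SE 0.76) was 0.24 once DDB1_KD replicate 2 was left out.

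**Figure D3:**
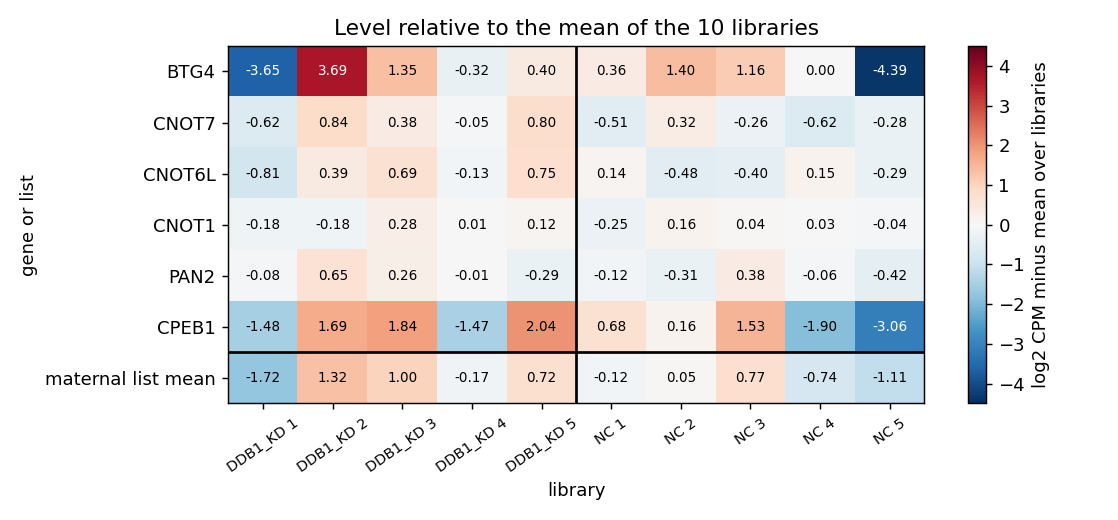
Log2 CPM of each tested member in each library minus its mean over the 10 libraries, with DDB1_KD libraries left of the line and NC libraries right of it, and in the bottom row the mean of 18 other maternal transcripts treated the same way. BTG4, CPEB1 and the maternal list are all below their means in DDB1_KD replicate 1 and NC replicate 5 and above them in DDB1_KD replicates 2, 3 and 5.

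The genes with the most similar profile over the 10 libraries were found by the root mean square difference of centred log2 CPM. For BTG4 these were PIWIL1, a germline Argonaute gene (difference 0.59), and a row annotated as ret finger protein-like 4A (0.66), where the median over all genes was 2.34. CPEB1 was nearest to the fatty acid receptor gene CD36 (0.46) and FXYD6 (0.50). CNOT6L was nearest to USP38 (0.23) and to the decapping coactivator gene DCP1A (0.25), and CNOT7 to RGS22 (0.21) and MPHOSPH9 (0.23). The nearest genes to CNOT1 were ATP5PB and UBXN2B (both 0.11), and to PAN2 RBM17 (0.15) and ANGEL2 (0.16).

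Levels were then compared between members. In NC the order of mean FPKM was BTG4 (27.8 ± 19.8), CNOT7 (20.8 ± 5.34), CNOT1 (11.5 ± 1.04), CNOT6L (2.56 ± 0.516), PAN2 (1.16 ± 0.280), CPEB1 (0.940 ± 0.915) and ZAR1L (0.422 ± 0.321; SD, n = 5 each). The 5 values of CNOT7 lay above those of CNOT1, those of CNOT1 above CNOT6L and those of CNOT6L above PAN2. BTG4 and CNOT7 overlapped, as did PAN2, CPEB1 and ZAR1L. In DDB1_KD the means of the first 4 had this order, but BTG4 was above CNOT7 in 2 of 5 libraries, and its median was 23.9 FPKM where that of CNOT7 was 29.9 FPKM. CPEB1 and PAN2 changed places there within overlapping ranges.

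The deposited gene FPKM divides by 1 length per gene, which for CNOT7 works out at 4706 bases although its longest isoform has 4449. Sums of isoform FPKM, a comparison added after seeing the data, are therefore higher. By these sums CNOT7 had 54.9 ± 20.8 FPKM in DDB1_KD against 36.6 ± 9.25 FPKM in NC (mean ± SD over 5 libraries each), above BTG4 in the NC mean. The order of BTG4 and CNOT7 therefore depends on this choice.

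Catalytic subunits of CCR4-NOT come in pairs that exclude each other from the complex, and CNOT7 and CNOT6L were the more abundant partners in most libraries. CNOT7 exceeded its paralog CNOT8 in 10 of 10 libraries. It made up 68.6 ± 8.97% of the FPKM of the pair in DDB1_KD against 62.1 ± 6.57% in NC (mean ± SD over 5 libraries each), with overlapping ranges of 56.5 to 79.2% and 52.0 to 70.3%. CNOT6L exceeded CNOT6 in 8 of 10 libraries, 4 of each group, with a share of 64.3 ± 15.7% in DDB1_KD against 56.9 ± 10.1% in NC (mean ± SD over 5 libraries each). These partners were chosen for their paralogy, and by sums of isoform FPKM the CNOT7 share was 78.8% in DDB1_KD and 73.5% in NC.

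BTG4 exceeded the sum of its relatives in 1 of 10 libraries, DDB1_KD replicate 2. Set against BTG1, BTG2, BTG3, TOB1 and TOB2 together, it held 1.24 to 71.4% of the summed FPKM in DDB1_KD and 0.596 to 28.4% in NC. Singly, BTG4 in NC (mean 27.8 FPKM) was above BTG1 (15.4), TOB1 (17.4), TOB2 (5.34) and BTG2 (1.47). BTG3 was at 78.5 ± 11.99 FPKM in DDB1_KD against 82.3 ± 17.3 FPKM in NC (mean ± SD over 5 libraries each). CPEB1 held 6.25 to 50.02% of the FPKM of CPEB1 to CPEB4 in DDB1_KD and 2.47 to 35.7% in NC. PAN2 was below its partner PAN3 in 10 of 10 libraries, at 19.0 ± 5.70% of the pair in DDB1_KD against 15.7 ± 4.18% in NC (mean ± SD over 5 libraries each). In each of these comparisons the ranges of the groups overlapped.

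**Figure D4:**
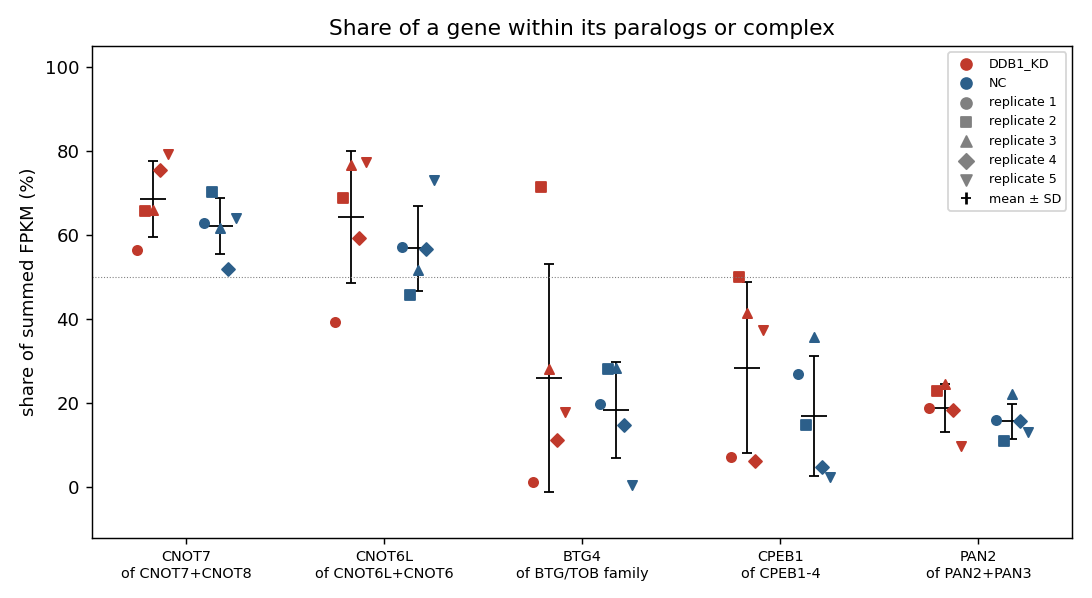
Share (%) of the summed gene FPKM held by CNOT7, CNOT6L, BTG4, CPEB1 and PAN2 among the paralogs or complex partner named on the axis, with 1 point per library, DDB1_KD in red left of NC in blue, and black bars for the mean ± SD (n = 5). CNOT7 lies above the dotted line at 50% in all 10 libraries, and the groups overlap in each of the 5 comparisons.

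The isoform table lists 33 isoforms of the 9 named genes, 25 of them with counts. Of these 11 reached the level filter, and none passed edgeR's test (smallest adjusted p = 0.9997), against 0.00889% of 11250 isoforms tested. At an unadjusted p under 0.05 there was 1 member isoform, of CNOT1, which passed the filter only through NC, and 3.36% of all isoforms, and DESeq2 passed 0 member isoforms.

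CNOT1 combined a steady gene level with an unsteady isoform assignment. Of its 5 isoforms with counts, ENSSSCT00000052383 held most of the isoform FPKM in 3 DDB1_KD libraries and 1 NC library, with shares of 20.004 to 99.5% in DDB1_KD and 0 to 56.5% in NC. ENSSSCT00000062805 led in 1 DDB1_KD and 2 NC libraries, and 3 further isoforms led in 1 library each. ENSSSCT00000060693 was the isoform with the smallest p in edgeR's test, and it reached the level filter through the NC libraries alone (mean 0.0219 FPKM in DDB1_KD against 3.05 FPKM in NC). It had 0, 24, 0, 15 and 0 counts in DDB1_KD replicates 1 to 5 and 61, 115, 3074, 2235 and 0 counts in NC replicates 1 to 5, so its NC level lay in replicates 3 and 4. These isoforms run from 8176 to 8890 bases, and reads of such similar transcripts are divided among them by estimation.

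CNOT7 was more regular. Its isoform of 7 exons, ENSSSCT00000007648, led in 5 of 5 DDB1_KD libraries (51.0 to 84.2%) and in 4 of 5 NC libraries (46.6 to 79.8%). The isoform ENSSSCT00000042803, of 6 exons, held 13.96 to 43.97% in DDB1_KD and 17.4 to 48.7% in NC. CPEB1 was counted on ENSSSCT00000002028 alone in the 5 DDB1_KD libraries, and that isoform also led in 4 NC libraries. In NC replicate 1 all 188 counts were on ENSSSCT00000002024.

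CNOT6L was led by ENSSSCT00000041786 in 4 of 5 libraries of each group. The exceptions, by isoform FPKM, were DDB1_KD replicate 5 and NC replicate 4. In DDB1_KD replicate 5 the short isoform ENSSSCT00000051409 (1668 bases) led with 546 counts, while ENSSSCT00000041786 (6694 bases) had 944. In NC replicate 4 ENSSSCT00000040815 had 1067 counts and ENSSSCT00000041786 had 135. For PAN2, ENSSSCT00000040880 has 53 exons, where the leading isoform ENSSSCT00000046573 has 26. It held 16.4 to 60.5% of the isoform FPKM in DDB1_KD and 6.07 to 31.5% in NC, and led in DDB1_KD replicate 2, the library with the highest PAN2 level.

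**Figure D5:**
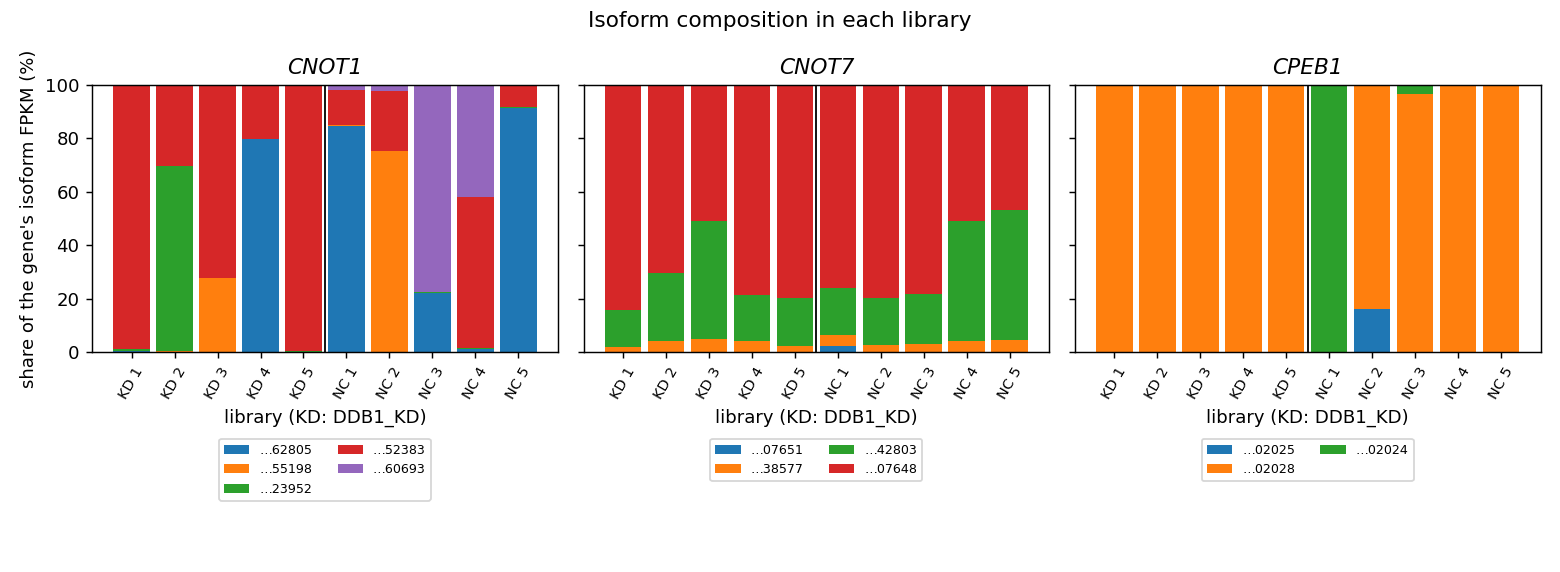
Share (%) of the summed isoform FPKM of CNOT1, CNOT7 and CPEB1 held by each isoform with counts (last 5 digits of the identifier), with 1 bar per library and DDB1_KD libraries left of the line. The leading isoform of CNOT1 changes between libraries of the same group, while 1 isoform of CNOT7 leads in 9 libraries.

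Other genes of the same pathways did not pass either. Of 19 further deadenylase subunits and partners, 16 were tested, with 7 values above 0 and 9 below (median -0.03). CNOT2, which binds the CNOT1 scaffold, had 17.4 ± 6.38 FPKM in DDB1_KD against 12.3 ± 3.38 FPKM in NC (mean ± SD over 5 libraries each; log2 fold change 0.51, SE 0.30). TOB2 stood at 0.28 (SE 0.20) and TOB1 at -0.17 (SE 0.25; -0.32 without NC replicate 4 and -0.06 without NC replicate 3), both adaptors of the BTG family. The RNA-binding decay factor ZFP36L2 stood at -0.36 (SE 0.45), at -0.57 without DDB1_KD replicate 1 and at -0.10 without DDB1_KD replicate 5. Its mean was 0.882 FPKM in DDB1_KD against 1.12 FPKM in NC, so ZFP36L2 passed the level filter through the NC libraries.

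Decapping and decay genes had 22 of 25 tested, with 10 values above 0 and 12 below (median -0.04). DCP1A, the decapping coactivator, had 15.7 ± 4.64 FPKM in DDB1_KD against 10.97 ± 2.36 FPKM in NC (mean ± SD over 5 libraries each; log2 fold change 0.54, SE 0.26). LSM1, of the ring that binds shortened tails, stood at 0.45 (SE 0.21), the helicase DDX6 at 0.51 (SE 0.24) and LSM6 at -0.36 (SE 0.21). For all 4 genes edgeR's adjusted p was 0.977.

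Of 28 names for cytoplasmic polyadenylation and repression 26 were found and 20 tested, 10 above and 10 below 0 (median -0.02). CAPRIN1, a translational regulator of RNA granules, had 11.8 ± 6.24 FPKM in DDB1_KD against 18.5 ± 2.93 FPKM in NC (mean ± SD over 5 libraries each; log2 fold change -0.65, SE 0.39, and -0.39 without DDB1_KD replicate 2). The cleavage factor subunits CPSF1 and CPSF3 stood at -0.36 (SE 0.30; -0.67 without DDB1_KD replicate 4) and -0.29 (SE 0.22). Over all 8476 genes the median was 0.00, so these 3 lists lay near it.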

How the data were processed

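The authors deposited FPKM values and estimated counts for 24358 genes and 47421 isoforms in each of 10 libraries, per the file headers, and the deposited counts are whole numbers. The submitters' processing notes name fastp, HISAT2, HOMER, ChIPseeker, StringTie and edgeR without role, and the build susScr11. The counts may be derived from coverage, in which case their sampling error is not that of read counts. edgeR 4.0.16 (glmQLFit, glmQLFTest, TMM scaling, R 4.3.3) was fitted to genes or isoforms with a mean of at least 1 FPKM, with the group as the single term and Benjamini-Hochberg adjustment over all of them at 0.05. DESeq2 1.42.0 and limma 3.58.1 on log2(FPKM + 1) were alternatives. The edgeR fit was tested on simulated data with 200 changed features, the spread of each feature being set by the fitted trend over level. For 8476 genes it recovered 16% at a log2 fold of 1 and 86% at 2. For 11250 isoforms it recovered 0% at 1, 18% at 2, 34% at 3 and 54% at 4. Most isoform changes at a log2 fold of 1, 2 or 3 would thus be missed. It falsely called 5 unchanged genes and 4 unchanged isoforms. Recovery for features that spread more than the trend was not measured. The members and lists were chosen with earlier results of these data known. The cumulus and granulosa cell list had 1 tested gene. BTG3, CDX2 and SOX2 were added after their values were seen. Otherwise named were all members, DDB1, up to 4 genes of each list with the smallest p and the 2 nearest profiles of each tested member. One gene that this rule names is not reported here. Python 3.11.15, pandas 2.3.3 and matplotlib 3.10.9 were used.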

Additional observations from a re-analysis of the deposited data

Results flagged for a closer look

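In 5 of 22 groups of 5 values, for the 9 named genes, the DAZL row and DDB1, 1 library stood far from the other 4 by Dixon's test at 95%. Chance gives about 1 in 20 for normally distributed values. That does not hold for the 3 groups of ZAR1 and PABPN1L, where most libraries had no count. The test used FPKM, and a high value stands out less on a log scale, so the flags depend on the scale. BTG4 in DDB1_KD replicate 2 had 266 FPKM, and the other 4 had 1.48 to 46.7 FPKM. ZAR1 in the same library had 0.771 FPKM, with at most 0.136 FPKM in the others. PABPN1L had 0.510 FPKM in DDB1_KD replicate 3 and 0.175 FPKM in NC replicate 1, and no count in the other 4 libraries of either group. PAN2 had 1.64 FPKM in NC replicate 3, and the other NC libraries had 0.944 to 1.14 FPKM.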

How the results depend on the processing

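No member passed under any of the 16 alternatives to the gene comparison. The number of genes passed was 0 in the edgeR and limma fits and 2 with DESeq2. For isoforms it was 1, against 0 with no level filter, 68 with DESeq2, 0 with the replicate number as a block, and 0 to 2 with 1 library left out. BTG4 turned to -0.28 without DDB1_KD replicate 2, and CNOT1 to -0.036 without DDB1_KD replicate 3 and -0.018 without NC replicate 1; without NC replicate 2 their values were highest, at 1.66 and 0.0865. The cause of these changes was not tested. With the replicate block 0 genes passed. The numbers share no stated source, and same-numbered libraries deviated together with r of -0.14 to 0.35, so the libraries were not treated as pairs, and 1 of 5 DDB1_KD libraries correlated best with its own number. Of 464 recomputed fold changes of named genes, 460 kept direction and call, 3 turned and 1, DDB1 with DESeq2 (adjusted p = 0.0069), passed. Depth limits ZAR1 and PABPN1L, at no more than 46 counts in a library.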
